A study of Mus musculus with 6 samples.

Results

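Cbr1, Cbr3, Dop1b, Morc3 and Chaf1b lie one after another on the plus strand of mouse chromosome 16, between positions 93605853 and 93906115 of GRCm38, a stretch of 300.3 kb. They were taken as a block of 5 genes out of the 55487 genes of the count table. The block was chosen from the measured difference between the groups described here, because Cbr3, Dop1b and Morc3 stood next to each other among the genes that were higher in one group. Cbr1 and Chaf1b were added as the genes at its ends. The differences between the groups in these 5 genes are therefore given as a description and without a test.

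The data are RNA sequencing counts from muscle stem cells, the precursors that rebuild muscle fibres, of 10-week-old mice, taken 60 h after CTX, in muscle work the usual short form of cardiotoxin, a venom toxin that injures fibres. Of the 6 libraries, 3 are labelled Setdb1 KO with tamoxifen and 3 are labelled wild type (WT) with oil. All 6 share the injury, the age and the time. Tamoxifen and genotype changed together and cannot be told apart. The labels name neither the deleted exon nor the recombinase that tamoxifen acts on, and they call the libraries biological replicates. Setdb1, whose product places a silencing methyl mark on histone H3, was at 16.5, 12.7 and 14.7 CPM (TMM-normalised read counts, scaled to library size) in KO libraries and at 34.8, 40.5 and 32.1 CPM in control libraries. Setdb1 was lower in every KO library, though still present (log2 fold change -1.30, SE 0.16, edgeR quasi-likelihood test with Benjamini-Hochberg adjustment, adjusted p = 2.092e-04).

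Cbr1 and Cbr3 encode carbonyl reductases, cytosolic enzymes that use NADPH to reduce quinones and other carbonyl compounds, in human cells among them the drug doxorubicin. Dop1b, formerly Dopey2, encodes a large protein of the DOP1 family, which works with MON2 in membrane traffic between endosomes and the Golgi. Morc3 encodes a nuclear ATPase of the MORC family with a zinc finger that reads histone marks. In mouse embryonic stem cells MORC3 takes part with DAXX in the silencing of endogenous retroviruses. Chaf1b encodes a subunit of chromatin assembly factor 1 (CAF-1), which places new histones behind the replication fork. SETDB1 is known for keeping retroelements and some single-copy genes silent through methylation of histone H3.

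The 250 bases before the start of each of the 5 genes are shown because Cbr3, Dop1b and Morc3 were called as neighbours and Chaf1b was not. They are from RefSeq on GRCm38.p6, plus strand, and all 5 symbols matched. Capitals mark every match, on either strand, to the motifs named after the sequences.
Cbr1 (chr16:93607587-93607836): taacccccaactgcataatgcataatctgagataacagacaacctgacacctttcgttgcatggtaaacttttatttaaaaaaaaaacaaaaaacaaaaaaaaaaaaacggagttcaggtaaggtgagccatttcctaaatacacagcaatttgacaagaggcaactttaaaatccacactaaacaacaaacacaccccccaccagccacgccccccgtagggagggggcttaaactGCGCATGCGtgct
Cbr3 (chr16:93682969-93683218): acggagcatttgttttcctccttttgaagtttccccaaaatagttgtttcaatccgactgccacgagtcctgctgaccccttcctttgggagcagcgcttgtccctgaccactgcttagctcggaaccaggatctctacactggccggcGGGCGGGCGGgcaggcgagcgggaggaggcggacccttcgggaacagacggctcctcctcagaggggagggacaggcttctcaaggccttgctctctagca
Dop1b (chr16:93711657-93711906): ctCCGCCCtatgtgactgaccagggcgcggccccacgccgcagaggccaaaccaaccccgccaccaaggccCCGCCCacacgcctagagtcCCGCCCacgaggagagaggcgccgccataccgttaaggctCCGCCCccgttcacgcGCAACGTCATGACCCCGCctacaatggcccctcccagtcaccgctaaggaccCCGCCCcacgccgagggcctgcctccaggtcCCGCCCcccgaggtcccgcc
Morc3 (chr16:93831871-93832120): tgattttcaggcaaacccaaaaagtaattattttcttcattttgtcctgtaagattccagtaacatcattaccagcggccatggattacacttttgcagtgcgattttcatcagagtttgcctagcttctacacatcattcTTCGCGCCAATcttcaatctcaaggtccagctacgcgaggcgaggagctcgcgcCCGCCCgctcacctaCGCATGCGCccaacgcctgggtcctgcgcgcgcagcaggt
Chaf1b (chr16:93883651-93883900): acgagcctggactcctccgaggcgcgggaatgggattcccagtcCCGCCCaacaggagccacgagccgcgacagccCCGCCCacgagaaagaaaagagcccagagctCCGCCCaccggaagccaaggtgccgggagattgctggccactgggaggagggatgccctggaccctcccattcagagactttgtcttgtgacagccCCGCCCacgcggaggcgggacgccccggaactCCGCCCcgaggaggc

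The motifs searched were the GC box GGGCGG, the CCAAT box, the TATA box TATAAA, the antioxidant response element core TGACNNNGC, the NRF1 motif core GCGCATGCG, the cAMP response element core TGACG, the E2F site core TTCGCGCC and the E box CACGTG. They were picked with the sequences and the gene values in view. The Dop1b window held 6 GC boxes, the Chaf1b window 5, the Cbr3 window 2, which overlap each other, the Morc3 window 1 and the Cbr1 window 0. Of 32851 RefSeq promoters, 32.7% held a GC box in the same 250 bases. The Dop1b window also held 2 antioxidant response element cores, a match found in 10.2% of promoters. The first of them overlaps a single cAMP response element core, a match that 17.8% held, and the second adjoins it. The Cbr3 window held neither. The Morc3 window held an E2F site core (0.426% of promoters), which overlaps a CCAAT box (33.8%), and an NRF1 motif core (1.45%), which the Cbr1 window held as well. None of the 5 windows held a TATA box (12.4%) or an E box (6.02%), so no motif of this search was common to Cbr3, Dop1b and Morc3 other than the GC box.

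The promoters also differed in base composition. Guanine and cytosine made up 72.4% of the Dop1b window, 68.4% of the Chaf1b window, 59.6% of the Cbr3 window, 50.8% of the Morc3 window and 41.6% of the Cbr1 window, against a median of 52.4% over all promoters. CpG dinucleotides numbered 26 at Dop1b, 21 at Chaf1b, 17 at Morc3, 14 at Cbr3 and 6 at Cbr1, against a median of 6. Chaf1b, whose groups overlapped, had more CpG in this window than Morc3 or Cbr3. RefSeq gives Dop1b a second start further on, in whose window only the cAMP response element core was found, and GENCODE places the first base of Cbr1 upstream of the RefSeq start used here.

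Cbr3 (ENSMUSG00000022947, positions 93683215 to 93690990) showed the largest ratio of the 5 genes. It had 71, 130 and 105 counts in KO libraries, against 6, 6 and 12 in control libraries. On the CPM scale its level was 18.9, 26.7 and 20.5 in KO libraries, against 1.202, 1.25 and 2.22 in control libraries. The groups were far apart: the lowest KO library had 8.52 times the level of the highest control library. The mean was 22.03 ± 4.12 CPM in KO libraries and 1.56 ± 0.572 CPM in control libraries (SD, n = 3 each), and the fitted log2 ratio of KO over control was 3.79 (SE 0.27). The ratio of summed counts was 14.1, with an exact 95% interval of 9.30 to 22.3 that covers counting error only.

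Cbr1 (ENSMUSG00000051483, positions 93605853 to 93610505), the other carbonyl reductase gene, ends 72.7 kb before Cbr3 begins and was low in every library. It had 4.79, 6.37 and 5.08 CPM in KO libraries and 2.20, 3.55 and 2.77 CPM in control libraries. The groups did not overlap, but they rest on 75 counts in all KO libraries and 43 in all control libraries. The log2 fold change was 0.93 (SE 0.33), and the ratio of summed counts was 1.93 (exact 95% interval 1.31 to 2.87, counting error only). Cbr3 had 3.94, 4.19 and 4.04 counts per Cbr1 count in KO libraries, against 0.55, 0.35 and 0.80 in control libraries. These ratios only describe the pair, since Cbr3 was chosen from this contrast. In control libraries they rest on 6 to 12 Cbr3 counts and 11 to 17 Cbr1 counts a library. Cbr3 shared 0.08% of its 50-base transcript words with another gene, which was Cbr1, and Cbr1 shared 1.85% of its words with Cbr3 and the predicted gene Gm5678. The pair thus had few such words in common.

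Dop1b (ENSMUSG00000022946, positions 93711904 to 93810590) begins 20.9 kb after the end of Cbr3. Its level was 50.5, 38.6 and 36.2 CPM in KO libraries and 5.41, 4.38 and 3.33 CPM in control libraries. The groups were far apart here too, with 6.69 times the level of the highest control library in the lowest KO library. The mean was 41.8 ± 7.69 CPM in KO libraries and 4.37 ± 1.04 CPM in control libraries (SD, n = 3 each), with a log2 fold change of 3.25 (SE 0.21). With 563 counts in KO libraries and 66 in control libraries, the ratio of summed counts was 9.43 (exact 95% interval 7.30 to 12.4, counting error only).

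An antisense gene, 2310043M15Rik, overlaps Dop1b by 443 bases of exon, and Dop1b shared 3.93% of its 50-base words with it and with Slc38a11. The antisense gene had 2, 1 and 3 counts in KO libraries and 0 in each control library. The strand setting of the counting is not given in the sources used here, so reads over this overlap cannot be assigned with certainty.

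Morc3 (ENSMUSG00000039456, positions 93832121 to 93876073) lies 21.5 kb after Dop1b. It had 79.0, 96.9 and 96.9 CPM in KO libraries, against 44.7, 52.0 and 38.8 CPM in control libraries. The groups were apart, by less than for Cbr3 and Dop1b, with 1.52 times the level of the highest control library in the lowest KO library. The mean was 90.9 ± 10.4 CPM in KO libraries and 45.1 ± 6.61 CPM in control libraries (SD, n = 3 each), and the log2 fold change was 1.01 (SE 0.13). Its ratio of summed counts was 2.05 (exact 95% interval 1.87 to 2.25, counting error only). Morc3 shared none of its 50-base words with another gene.

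Chaf1b (ENSMUSG00000022945, positions 93883901 to 93906115) starts 7.83 kb after the end of Morc3, the shortest gap in the block. Its level was 19.4, 24.2 and 20.7 CPM in KO libraries and 19.4, 20.7 and 20.5 CPM in control libraries. The groups overlapped, with a log2 fold change of 0.09 (SE 0.15) and a ratio of summed counts of 1.07 (exact 95% interval 0.909 to 1.26, counting error only). Library by library, Morc3 had 4.07, 4.0 and 4.68 counts per Chaf1b count in KO libraries, against 2.30, 2.52 and 1.89 in control libraries. These ratios only restate the values above, since Morc3 was chosen from this contrast.

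**Figure D1:**
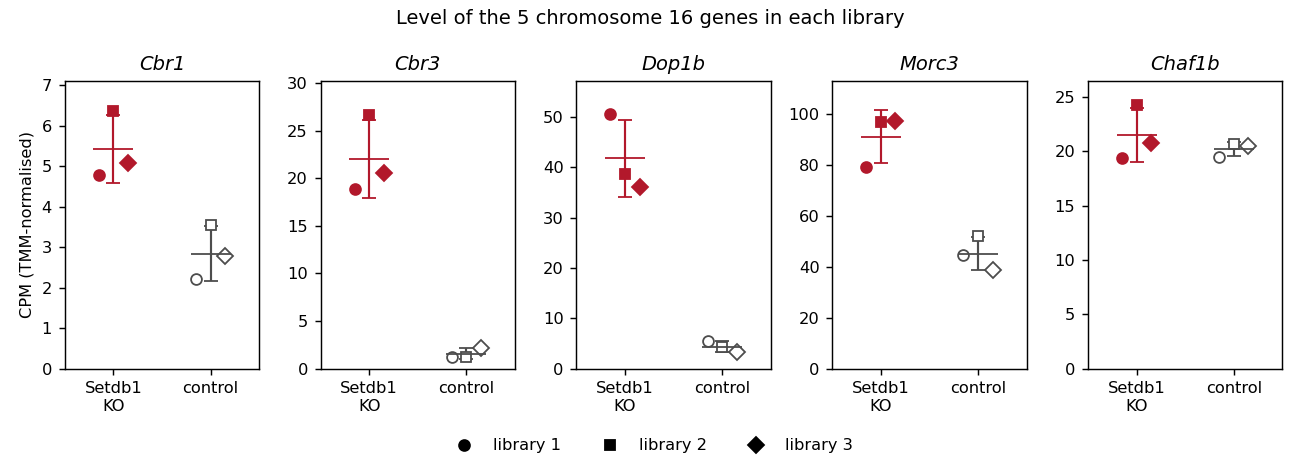
TMM-normalised CPM (vertical axes, each from 0) of Cbr1, Cbr3, Dop1b, Morc3 and Chaf1b in the 3 Setdb1 KO libraries (filled) and the 3 control libraries (open), with the mean as a bar and the SD as an error bar. The KO libraries lie above the control libraries for Cbr1, Cbr3, Dop1b and Morc3, and the groups overlap for Chaf1b, at 19.4 to 24.2 CPM in KO libraries and 19.4 to 20.7 CPM in control libraries.

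Over all 11224 genes with enough counts to test, 318 genes (2.83%) were called in either direction at an adjusted p under 0.05 in edgeR. Without KO library 1, KO library 2 or control library 2 these were 152, 180 and 157. Of the 318 genes called with all libraries, 249 (2.22%) were higher and 69 (0.615%) lower. Cbr3, Dop1b and Morc3 were among the higher genes, which is what put them in the block, and Cbr1 and Chaf1b were not called. Morc3 had the lowest log2 fold change of the 3 called members, 1.01 (SE 0.13), and Cbr1 the higher one of the 2 that were not, 0.93 (SE 0.33). Groups did not overlap in 4 of the 5 genes and in 24.3% of tested genes, and every KO library lay above every control library in 12.8% of them. By log2 fold change Cbr3 ranked 14 and Dop1b 19 among the 11224 genes, while Morc3 ranked 308, Cbr1 363 and Chaf1b 4448. The ranks only describe how the block was chosen.

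Levels can be compared between genes per length of annotated exon. In KO libraries Cbr3 stood at 17.6 ± 3.28 and Morc3 at 16.7 ± 1.91 CPM per kb, which did not differ beyond their spread. Chaf1b at 4.58 ± 0.532 and Dop1b at 4.22 ± 0.778 CPM per kb did not differ beyond their spread either, and Cbr1 was the lowest at 2.12 ± 0.329 CPM per kb. In control libraries Morc3 led at 8.31 ± 1.22 CPM per kb, followed by Chaf1b at 4.32 ± 0.144. Cbr3 at 1.24 ± 0.456 and Cbr1 at 1.11 ± 0.265 CPM per kb lay within each other's spread, and Dop1b was the lowest at 0.442 ± 0.105. By level per kb, Cbr3 thus stood beside Morc3 in KO cells and beside Cbr1 in control cells.

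The order of the genes by ratio was not their order by gain in transcript. Per kb of exon, the mean of KO libraries exceeded that of control libraries by 16.3 CPM for Cbr3, 8.44 CPM for Morc3, 3.78 CPM for Dop1b, 1.01 CPM for Cbr1 and 0.268 CPM for Chaf1b. Morc3, with a ratio of 2.05, thus gained more per kb than Dop1b, with a ratio of 9.43. Summed over the block, the 5 genes had 173, 193 and 179 CPM in KO libraries and 72.9, 81.8 and 67.6 CPM in control libraries. The 3 sums of KO libraries lay above the 3 of control libraries, which only restates that Cbr3, Dop1b and Morc3 were chosen from this contrast.

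The members did not vary alike among the libraries of a group. KO library 1 had the highest Dop1b level of the KO libraries and the lowest Cbr3, Morc3, Cbr1 and Chaf1b levels. Dop1b accordingly had 0.64 counts per Morc3 count in KO library 1, against 0.40 and 0.37 in KO libraries 2 and 3. Among controls, library 3 had the highest Cbr3 level and the lowest Dop1b and Morc3 levels. With 3 libraries a group these are single values, and for Cbr3 and Dop1b in controls they rest on 6 to 27 counts a library.

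The same 2 libraries stood at an extreme in other measures, KO library 1 in depth and ribosomal share and control library 3 in neutrophil markers. KO library 1 had the fewest counts (4052569, against up to 5690844) and the largest share in the ribosomal RNA gene CT010467.1 (38.4%, against 28.6% to 32.2% in the others). The summed level of 6 neutrophil markers was 0.798, 640 and 244 CPM in KO libraries and 0, 1.67 and 1823 CPM in control libraries. Of 6 macrophage markers, Lyz2, which neutrophils also express, was at 2.39, 29.4 and 19.0 CPM in KO libraries and 9.61, 3.76 and 76.1 CPM in control libraries. The other 5 summed to 3.70 to 4.26 CPM in KO libraries and 3.76 to 5.61 CPM in control libraries and set no library apart. Without control library 3 and KO library 1, a choice made after seeing those values, the log2 fold changes were 4.23 for Cbr3, 2.92 for Dop1b, 1.00 for Morc3, 0.99 for Cbr1 and 0.16 for Chaf1b. The libraries left in that fit differed by group in the neutrophil markers, at 640 and 244 CPM in KO and 0 and 1.67 CPM in control libraries. Group and neutrophil level thus cannot be told apart in it. Leaving out any 1 library gave 3.62 to 4.14 for Cbr3, 3.07 to 3.42 for Dop1b, 0.91 to 1.12 for Morc3, 0.77 to 1.11 for Cbr1 and -0.01 to 0.15 for Chaf1b.

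All 8 markers of muscle stem cells and myoblasts were measured, with Pax7 at 26.9 ± 6.56 CPM in KO libraries and 26.9 ± 5.70 CPM in control libraries (SD, n = 3 each). Their summed level was 1430 to 1854 CPM in KO libraries and 1257 to 1335 CPM in control libraries. Myod1, 1 of the 8, was higher in KO libraries (log2 fold change 1.04, SE 0.15, edgeR adjusted p = 7.791e-04), where 2.22% of all tested genes were higher. The 4 fibroblast markers summed to 661 to 1114 CPM in KO libraries and 308 to 830 CPM in control libraries, and the 4 endothelial markers to 7.04 to 9.03 CPM in KO libraries and 2.71 to 7.01 CPM in control libraries. C1qa was at 0 in each KO library but had only 3, 1 and 1 counts in control libraries. C1qb, of the same list, had 1, 1 and 2 counts in KO libraries and 4, 1 and 2 in control libraries. S100a8 was at 0 in KO library 1 and control libraries 1 and 2. None of the 10 neutrophil, macrophage, fibroblast and endothelial markers that could be tested was called, against 2.83% of all tested genes in edgeR. The part of these markers in the block's values was not tested. In such bulk samples, more cells with a transcript and more transcript per cell cannot be told apart.

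**Figure D2:**
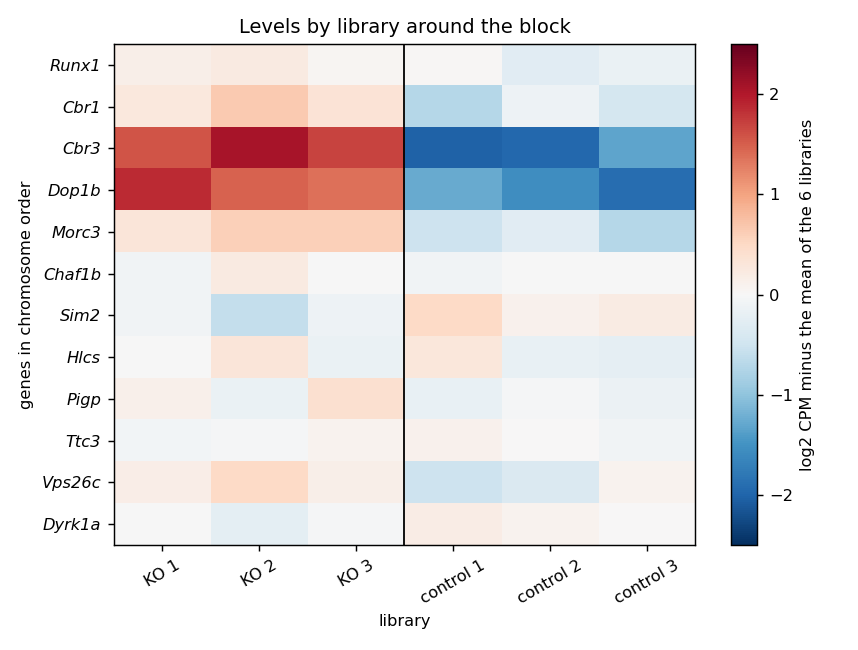
Log2 CPM of each gene minus its mean over the 6 libraries (colour scale, red above and blue below the mean) for the 5 genes of the block and the 7 tested genes within 1 Mb, in chromosome order, with the 3 Setdb1 KO libraries left of the line and the 3 control libraries right of it. Cbr3 and Dop1b show the strongest contrast between the groups, Cbr1 and Morc3 a weaker one, and Chaf1b and the genes after it show less.

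The surroundings of the block were not used to choose its members, although its ends were drawn with the values known. Within 1 Mb on either side, and between the members, the annotation holds 43 other genes, 12 of them protein-coding. No counts at all were found for 18 of them, and 7 had enough to test, 1 before the block and 6 after it. None of the 7 was called in edgeR, DESeq2 or limma-voom, with adjusted p from 0.238 to 0.956 in edgeR against 2.83% called over all genes. An unadjusted p under 0.05 was found for 3 of the 7 (Runx1, Sim2 and Vps26c) and for 17.7% of all tested genes. The log2 fold changes of the 7 ran from -0.56 to 0.54, with a median of 0.10. Among the 7, groups did not overlap for Runx1, Sim2, Vps26c and Dyrk1a, where they did not in 24.3% of all tested genes.

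After Chaf1b, the first tested gene was Sim2, a transcription factor gene 179 kb away. It was at 7.45, 5.13 and 7.23 CPM in KO libraries and at 11.4, 8.56 and 9.24 CPM in control libraries (log2 fold change -0.56, SE 0.24, adjusted p = 0.238, edgeR). Sim2 was the only one of the 7 to lie below zero by more than 2 of its SE. Hlcs, which encodes the enzyme that attaches biotin to carboxylases, had a log2 fold change of 0.10 (SE 0.30). Pigp, of the synthesis of membrane anchors, had 0.28 (SE 0.28), and Ttc3, a ubiquitin ligase gene, had -0.02 (SE 0.11), none of them called (adjusted p = 0.898, 0.646 and 0.956). Vps26c and the kinase gene Dyrk1a, further on and outside the rule for naming genes, had 0.54 (SE 0.24) and -0.19 (SE 0.11).

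Before Cbr1 the annotation is sparse. The nearest tested gene was the transcription factor gene Runx1, 780 kb away, at 252.7, 263.7 and 234.9 CPM in KO libraries and 232, 186 and 202 CPM in control libraries (log2 fold change 0.28, SE 0.12, adjusted p = 0.248, edgeR). Setd4, which lies next to Cbr1 on the minus strand, had 2, 4 and 3 counts in KO libraries and 4, 3 and 4 in control libraries, too few to test. Cldn14, the first gene after Chaf1b, had 2 counts in KO libraries together and 0 in control libraries. Both were too low at this depth for a difference to be tested, so where the difference ends on the Cbr1 side is not resolved. The 3 annotated genes between Cbr1 and Cbr3 had at most 2 counts over all libraries.

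**Figure D3:**
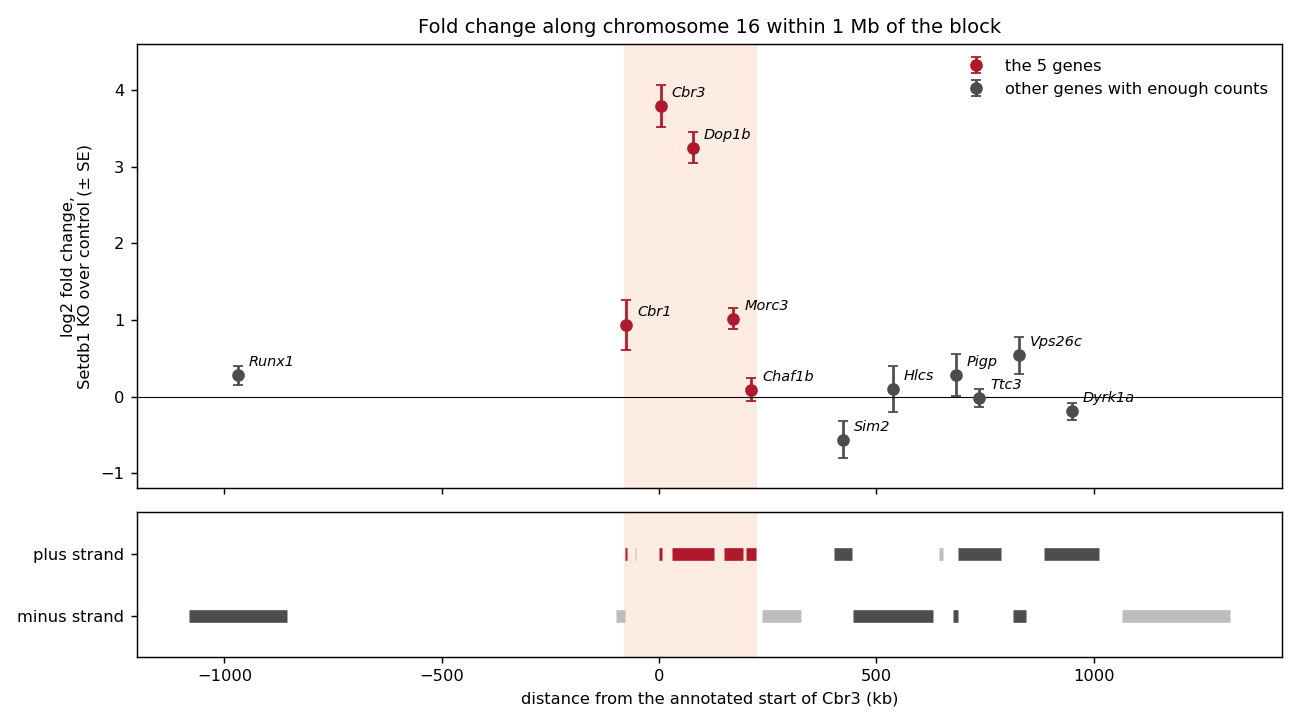
Log2 fold change of Setdb1 KO over control with its SE (vertical axis) for the 5 genes (red) and the 7 other tested genes within 1 Mb (dark grey), placed at the middle of each gene by distance in kb from the annotated start of Cbr3. The lower panel draws the gene bodies to scale by strand, with protein-coding genes too low to test in light grey. Values near 3.79 and 3.25 at Cbr3 and Dop1b drop to 1.01 at Morc3 and 0.09 at Chaf1b, and the genes outside the shaded block lie between -0.56 and 0.54.

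Elsewhere on chromosome 16, 3 of 350 tested genes (0.857%) were higher and none lower, against 2.22% higher over all genes, and the median log2 fold change was 0.01 on the chromosome and 0.01 over all tested genes. The 3 were Hacd2, 2510009E07Rik and Cd80, named after their values were seen. Along the whole genome, runs of 3 or more neighbouring tested genes that were all higher numbered 4. The run of Cbr3, Dop1b and Morc3 spanned 193 kb, the longest of the 4. The others were Ddt, Gstt3, Gstt1 and Gstt2 on chromosome 10 (66.2 kb), Fkbp11, Arf3 and Wnt10b on chromosome 15 (53.8 kb) and 5 gamma protocadherin genes on chromosome 18 (99.8 kb), which share exons with one another. The chromosome 16 run, like that of Fkbp11, Arf3 and Wnt10b, held genes of unrelated families. The chromosome 10 run held glutathione transferase genes beside Ddt, and the chromosome 18 run protocadherin genes alone.

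Genes that work with the products of the block were measured from lists that leave the members out. Of 23 genes for carbonyl and related reductases, 17 could be tested and none was called in edgeR, DESeq2 or limma-voom, where edgeR called 2.83% of all tested genes. An unadjusted p under 0.05 was reached by 2 genes above zero and 0 below, against 10.1% of all tested genes above and 7.64% below. The list had a median log2 fold change of 0.15. Akr1b3 and Akr1a1, both aldo-keto reductase genes, and Hsd17b12, of fatty acid elongation, had the highest CPM, with log2 fold changes of 0.03, 0.21 and 0.04. Cbr4, a mitochondrial carbonyl reductase gene on chromosome 8, was at 3.54 ± 0.6997 CPM in KO libraries and 3.17 ± 0.558 CPM in control libraries (SD, n = 3 each; edgeR adjusted p = 0.867). Cbr4 had 48 counts in KO libraries and 48 in control libraries, and Cbr2 had 7 and 2, too few to test. Of the other untested genes of the list, Dcxr had 12 and 1 and Dhrs11 had 13 and 17.

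Of 14 genes around DOP1 and MON2, 13 were tested and none was called with the same 3 tools, where edgeR called 2.83% of all tested genes. The median log2 fold change was 0.04, and 1 gene above zero and 0 below had an unadjusted p under 0.05, against 10.1% and 7.64% of all tested genes. Dop1a, the paralogue of Dop1b on chromosome 9, was at 18.4, 12.1 and 15.2 CPM in KO libraries and 14.8, 12.5 and 14.0 CPM in control libraries. The Dop1a groups overlapped (log2 fold change 0.13, SE 0.19, edgeR adjusted p = 0.759). Per kb of exon, Dop1a had 0.896, 0.592 and 0.744 CPM in KO libraries and 0.724, 0.612 and 0.686 CPM in control libraries, while Dop1b had 5.11, 3.90 and 3.66 CPM in KO libraries and 0.547, 0.443 and 0.336 CPM in control libraries. On that scale Dop1b lay above Dop1a in each KO library and below it in each control library. That only describes the pair, since Dop1b was chosen from this contrast. Mon2, the partner gene, had 66.5, 60.2 and 64.7 CPM in KO libraries and 59.3, 53.0 and 44.7 CPM in control libraries (log2 fold change 0.29, SE 0.13, edgeR adjusted p = 0.253). The 3 genes of the list with the highest CPM, the kinesin gene Kif5b, the retromer gene Vps35 and the Golgi GTPase gene Arl1, had log2 fold changes of -0.09, 0.04 and 0.05.

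Of 13 MORC genes and partners of MORC3, 10 were tested and none was called with these tools, where edgeR called 2.83% of all tested genes. The median log2 fold change was -0.11, with 1 gene above zero and 0 below at an unadjusted p under 0.05, against 10.1% and 7.64% of all tested genes. Morc2a, whose human counterpart acts with the HUSH silencing complex, had 62.2, 50.1 and 62.7 CPM in KO libraries and 45.1, 53.2 and 41.0 CPM in control libraries (log2 fold change 0.33, SE 0.14, edgeR adjusted p = 0.221). Morc4 had a log2 fold change of -0.25 (SE 0.15), and Morc1 and Morc2b had too few counts to test. The highest CPM were those of H3f3b and Sumo2, with log2 fold changes of -0.26 and -0.07, and Atrx with -0.27. Daxx, the partner of MORC3 in retrovirus silencing, was at 14.4 ± 1.77 CPM in KO libraries and 14.2 ± 1.01 CPM in control libraries (SD, n = 3 each).

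Among 12 genes of chromatin assembly around CHAF1B, all tested, Mbd1 was higher and none was lower, against 2.22% higher and 0.615% lower over all tested genes. Mbd1 encodes a protein that binds methylated DNA and is known in human cells to link SETDB1 to CAF-1 during replication. It was at 41.0, 40.2 and 29.5 CPM in KO libraries and at 19.2, 15.03 and 14.96 CPM in control libraries, and the groups did not overlap. The log2 fold change was 1.16 (SE 0.17; edgeR adjusted p = 9.882e-04), and Mbd1 was called under all 16 alternatives. Chaf1a, which encodes the large subunit of CAF-1, was at 36.2, 43.5 and 44.0 CPM in KO libraries and 56.1, 52.6 and 60.6 CPM in control libraries (log2 fold change -0.45, SE 0.13, edgeR adjusted p = 0.072). The Chaf1a groups did not overlap, while those of Chaf1b did.

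Including Chaf1a, 7 of the 12 lay below zero with an unadjusted p under 0.05 and 2 above it, where 7.64% of all tested genes lay below and 10.1% above at the same limit. The median log2 fold change was -0.27 against 0.01 over all genes. The histone chaperone gene Nasp, with a log2 fold change of -0.51 (SE 0.14, edgeR adjusted p = 0.072), and Pcna, the sliding clamp of replication, with -0.40 (SE 0.12, adjusted p = 0.093), were among them.

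NRF2 is a transcription factor of the antioxidant response, and CBR3 is known as one of its targets in human cells. Of 12 NRF2 target genes, 10 were tested, of which Gsta4, a glutathione transferase gene on chromosome 9, was higher and none was lower. Over all tested genes, 2.22% were higher and 0.615% lower. Gsta4 was at 85.4, 115 and 94.0 CPM in KO libraries and 1.00, 2.30 and 2.22 CPM in control libraries (log2 fold change 5.72, SE 0.22; edgeR adjusted p = 3.155e-09). Gclc and Txnrd1, of glutathione synthesis and thioredoxin reduction, had log2 fold changes of -0.49 and -0.37 (edgeR adjusted p = 0.085 and 0.096), and Srxn1 had 0.39 (adjusted p = 0.160). Nqo1, the quinone reductase that is commonly read as an NRF2 marker, had 21 counts in KO libraries and 17 in control libraries, too few to test. The median of the 10 was 0.02, with 5 genes above zero and 5 below. In edgeR, 2 lay above zero and 2 below at an unadjusted p under 0.05. Of all tested genes, 10.1% lay above and 7.64% below at that limit.

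**Figure D4:**
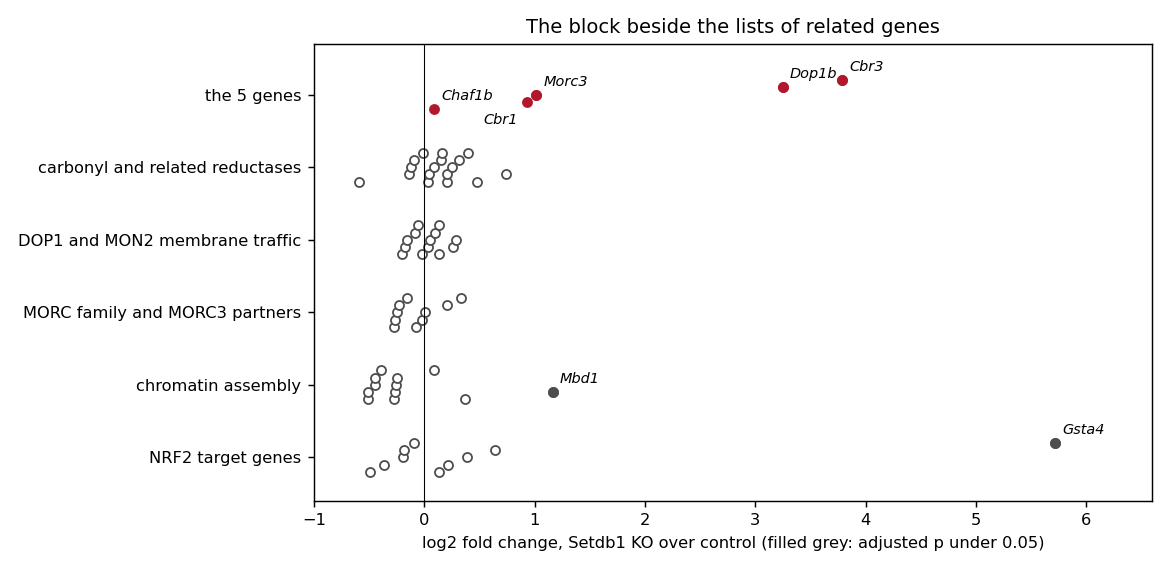
Log2 fold change of Setdb1 KO over control (horizontal axis) for each of the 5 genes (red, not tested) and each tested gene of the 5 lists (grey), where filled grey points passed an adjusted p under 0.05 in edgeR. Of the list genes only Mbd1 at 1.16 and Gsta4 at 5.72 passed, and the others lie between -0.59 and 0.74.

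The genes whose levels over the 6 libraries were most like the mean log2 CPM of Cbr3, Dop1b and Morc3 lay on other chromosomes. Pearson's r was 0.9995 for the cyclin gene Ccng1, 0.998 for Resf1, 0.998 for Tnfrsf22, 0.996 for Blnk and 0.995 for Tnfrsf23, over 6 libraries that share their group structure, so that any gene with tight groups far apart scores high. Ccng1 was at 185, 192 and 189.8 CPM in KO libraries and 63.7, 62.4 and 62.4 CPM in control libraries. Blnk, a B cell adaptor gene on chromosome 19, was at 36.4, 31.8 and 31.7 CPM in KO libraries and 5.61, 5.22 and 5.91 CPM in control libraries. Tnfrsf22 had 27.4% and Tnfrsf23 had 19.3% of its 50-base words in common with others, among them each other, so their counts are less certain. Measured the same way, r was 0.989 for Cbr3 and for Dop1b, 0.959 for Morc3, 0.906 for Cbr1 and 0.409 for Chaf1b, of which the first 3 are part of the mean itself.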

How the data were processed

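RNA of muscle stem cells was sequenced in 6 libraries, with 3 for each group, per the labels. The labels' protocols give ribosomal RNA removal with a stranded total RNA kit and paired reads, and also name a SMARTER mRNA kit, so the kit is not settled. The submitters' processing notes name STAR, Salmon, DESeq2 1.34.0 and GRCm38. Their roles, the counting tool, its handling of strand and the gene annotation are not named. The authors deposited raw counts per Ensembl gene, with 4052569 to 5690844 counts a library, so genes with few counts are imprecise. The exact intervals rest on counts summed over the libraries of a group, without molecular identifiers, and cover counting error only. Replicate libraries were farther apart than sampling noise (chi-square per degree of freedom 6.04 or more).

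Symbols matched for 55141 of 55487 genes, and positions came from GENCODE M21 on GRCm38. Counts were fitted with edgeR 4.0.16 in R 4.3.3 (TMM, default filter, robust quasi-likelihood test, two-sided, Benjamini-Hochberg over 11224 genes, threshold 0.05). SE were derived from log2 fold changes and F values, and the procedure was tested on simulated data. DESeq2 1.42.0, limma-voom (limma 3.58.1), other scalings and filters, protein-coding genes alone, a replicate block and libraries left out were alternatives. Outside the members, named genes were the 4 nearest tested genes on either side within 1 Mb, the called genes of each list or else its 3 with the highest CPM, and the 5 most alike in level. Others were chosen after their values were seen. Members, lists and tests were chosen with earlier results of these data known. Motifs and shared words were counted in Python 3.11.15.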

Additional observations from a re-analysis of the deposited data

How the results depend on the processing

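The direction of Cbr1, Cbr3, Dop1b and Morc3 held under all 16 alternatives, and that of Chaf1b, near zero, did not (-0.0095 at its lowest). Leaving out 1 library gave log2 fold changes of 3.62 to 4.14 for Cbr3 and 3.07 to 3.42 for Dop1b. Leaving out control library 3 and KO library 1 together, a pair chosen after seeing the data, gave 4.23 for Cbr3 and 2.92 for Dop1b. The libraries left then differed by group in neutrophil markers as well. None of the 7 tested neighbours was called under any alternative, nor any gene of the reductase, DOP1 or MORC lists. In the chromatin assembly list 1 gene was called lower without a low-count filter and 1 with protein-coding genes only. In the NRF2 list 2 were higher and 1 lower without a filter, and 0 to 1 lower with libraries left out. The cause was not tested.

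Called genes, 318 (249 higher, 69 lower), were 511 in all (373 higher, 138 lower) without a filter, 184 (147 higher, 37 lower) with DESeq2, 200 (34 lower) with limma-voom and 117 lower with protein-coding genes only. Without control library 3 and KO library 1 together, where neutrophil markers also differed by group, 394 were called (288 higher, 106 lower). Over the fits with libraries left out they ran from 152 to 394 (133 to 288 higher, 15 to 106 lower). Leaving out KO library 1 gave 133 higher and 19 lower, KO library 2 gave 158 and 22, and control library 2 gave 142 and 15. KO library 3 left 43 lower, and control library 1 left 38. With the replicate block 247 genes were called (206 higher, 41 lower). Same-numbered libraries deviated together with correlations of 0.142, -0.0925 and -0.0615, and 2 of 6 libraries correlated best with their own number. The numbers thus showed no pairing of the libraries, which so few libraries cannot exclude.

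Signs turned for genes near zero, none of them called. With library totals alone the log2 fold changes were -0.0279 for Akr1b3, -0.0215 for Hsd17b12, -0.0276 for Vps35 and -0.0143 for Arl1. Without a filter Akr1b3 had -0.0125 and Vps35 -0.00355, and with DESeq2 Akr1b3 had -0.00488. With libraries left out the values ran from -0.0567 to 0.287 for Hlcs, -0.0773 to 0.0272 for Ttc3, -0.0778 to 0.120 for Akr1b3, -0.0183 to 0.127 for Hsd17b12, -0.0472 to 0.147 for Arl1 and -0.182 to 0.0415 for Sumo2. Depth limits Setd4, Cldn14, Cbr2 and Nqo1, which had too few counts to test.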
